A study of Mus musculus with 2 samples.

Results

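Lipid-associated macrophages are described here as the cells of brown adipose tissue (BAT) that carried transcripts of Gpnmb and Trem2. A cell was taken when its unique molecular identifiers (UMIs, 1 per counted transcript) for both genes summed to at least 4 and when it held 0 UMIs of Cd3d, Cd3e, Cd3g and Cd79a, which mark T and B cells. Barcodes entered with 200 or more genes detected and with mitochondrial genes at no more than 10% of UMIs. It found 111 of 4295 kept cells, 93 of 2016 in the AdipoΔ/Δ library and 18 of 2279 in the control library. The cells were thus chosen by their measured Gpnmb and Trem2 UMIs, so the levels of both genes, and contrasts of the chosen cells with other cells of the same libraries, are descriptions without a test.

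The libraries held CD45+ DAPI- leukocytes sorted from collagenase-digested BAT and captured with 10x chemistry, 1 library per condition. All mice were male, on a C57Bl/6 background, and carried AdipoQ-CreERT2 and ATGLfl/fl. This Cre is driven by the adiponectin promoter of mature adipocytes and becomes active with tamoxifen, and the floxed gene, Pnpla2, encodes adipose triglyceride lipase (ATGL), which starts the breakdown of stored triglyceride. AdipoΔ/Δ mice received 200 uL of tamoxifen at 10 mg/ml into the peritoneum on alternate days over 1 week, followed by a rest of 2 weeks, and control mice received vehicle. The labels give an age of 16 weeks, whereas a legend of the study gives a younger one. The number of mice behind a library is not stated, and the deletion cannot be told apart from tamoxifen itself or from any other difference between the libraries. Since leukocytes were sorted, their Pnpla2 UMIs do not check the deletion in adipocytes; the AdipoΔ/Δ cells taken by the rule held 76 of them, or 55.4 CPM, which is the UMIs of a gene scaled to a common total.

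TREM2 is a surface receptor of macrophages that binds lipids and lipoproteins and signals through the adaptor TYROBP. In obese adipose tissue, TREM2 is needed for a programme of lipid uptake and lysosomal genes in macrophages that gather around dying adipocytes. GPNMB is a glycoprotein of lysosomes and of the cell surface, and its gene is among the usual markers of such cells.

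The 2016 kept AdipoΔ/Δ cells were 84.7% of the barcodes, with 11316418 UMIs, and the 2279 kept control cells were 87.8%, with 10753113 UMIs. Median depth was 3942 and 3678 UMIs per cell. The libraries shared 4 kept barcodes, of which none passed the rule. The 93 AdipoΔ/Δ cells were deep, with 839 UMIs at the lowest, 12925 at the median and 40494 at the highest, against a median of 3736 in the other kept cells of that library. They held 12.1% of all kept UMIs. Mitochondrial genes took between 0.0423% and 8.81% of their UMIs, with a median of 2.83%.

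Promoter sequences are shown for the rule genes and for a lipid droplet and a lysosomal gene that stood high in these cells. They are RefSeq sequences of GRCm38.p6, from 250 bases before to 20 bases after the transcription start. Capitals mark a match to TGANTCA, with any base at N, in Gpnmb and Trem2, and to CACGTG, the palindromic E-box, in Plin2 and Ctsl. The usual site of AP-1 factors has C or G at N. The Gpnmb match, TGACTCA, has this form, and the Trem2 match, TGAATCA, does not. All counts of TGANTCA include any base at N. The windows are chr6:49036268-49036537 (+) for Gpnmb, chr17:48346151-48346420 (+) for Trem2, chr4:86670040-86670309 (-) for Plin2 and chr13:64370501-64370770 (-) for Ctsl, each printed 5′ to 3′ along its gene.
Gpnmb: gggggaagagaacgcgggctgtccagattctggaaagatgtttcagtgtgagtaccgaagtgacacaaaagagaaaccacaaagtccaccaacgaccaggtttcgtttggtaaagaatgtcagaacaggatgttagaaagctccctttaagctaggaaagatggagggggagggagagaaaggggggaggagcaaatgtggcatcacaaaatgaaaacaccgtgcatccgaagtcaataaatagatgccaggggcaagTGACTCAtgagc
Trem2: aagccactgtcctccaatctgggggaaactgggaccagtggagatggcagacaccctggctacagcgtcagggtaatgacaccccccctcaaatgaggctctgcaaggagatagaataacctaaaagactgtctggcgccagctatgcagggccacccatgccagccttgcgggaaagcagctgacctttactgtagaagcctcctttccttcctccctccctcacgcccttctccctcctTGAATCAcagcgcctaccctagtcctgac
Plin2: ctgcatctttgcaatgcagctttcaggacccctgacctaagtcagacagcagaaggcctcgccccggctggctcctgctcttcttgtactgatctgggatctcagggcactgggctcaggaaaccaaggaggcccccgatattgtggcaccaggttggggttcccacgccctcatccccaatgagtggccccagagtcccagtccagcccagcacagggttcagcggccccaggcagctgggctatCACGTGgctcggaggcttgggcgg
Ctsl: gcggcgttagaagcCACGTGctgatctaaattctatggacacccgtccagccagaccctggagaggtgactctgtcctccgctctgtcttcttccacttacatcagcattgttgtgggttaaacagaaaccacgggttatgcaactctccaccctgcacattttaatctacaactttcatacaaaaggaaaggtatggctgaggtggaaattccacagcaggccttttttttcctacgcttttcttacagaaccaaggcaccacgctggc
Counted from the RefSeq start, the first base of the match was base 9 of the Gpnmb transcript, and lay 9 bases before the start of Trem2, 4 before that of Plin2 and 236 before that of Ctsl. The GENCODE annotation, from which gene positions are given, has other starts for Gpnmb and Ctsl: the Gpnmb window ends before its gene start at 49036546, and the Ctsl window lies inside a gene that starts at 64370890 on the minus strand.

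Over 21 leading genes, 18 had an entry in the promoter table, and Fabp5, Atp6v0d2 and Gdf3 had none. In windows that reached 50 bases past the start, read on both strands, TGANTCA was found in 6 of the 18: Aprt, Gpnmb, Igf1, Ms4a7, Slc37a2 and Trem2. It was found in 8.97% of all 27025 genes of the table. CACGTG was found in 3 of the 18, Ctsl, Plin2 and Slc27a1, and in 8.09% of all genes. Of the 6 other motifs read, the longer E-box TCACGTG was in 1 of the 18 and 4.29% of all genes, TCATGTG in 3 and 4.31%, the ETS-type motifs CACTTCCT in 3 and 4.68% and GAGGAAGT in 2 and 3.69%. The extended recognition element of MAF factors, which contains TGANTCA, was in 0 and 0.492%, and TTATCT in 1 and 12.7%. A match describes letters in a window and does not show that a factor binds there.

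The share of cells taken by the rule was 4.61% (95% interval 3.74 to 5.62) in the AdipoΔ/Δ library and 0.790% (0.469 to 1.25) in the control library. The ratio of shares was 5.84 (3.50 to 10.3). All intervals on shares and ratios cover counting error only, because no condition had a second library. For comparison, cells outside this group were sorted by similar UMI sums of at least 4. Cells with Lyve1 and Folr2, genes of resident macrophages, made up 3.22% and 0.878%, with a ratio of 3.67 (2.20 to 6.40). Cells with Ecm1 and Fcrls, genes of macrophages with matrix transcripts, made up 6.80% and 1.54%, with a ratio of 4.42 (3.03 to 6.61). Remaining cells with the complement genes C1qa, C1qb and C1qc made up 5.95% and 2.50%, a ratio of 2.38 (1.72 to 3.32). The interval of the Gpnmb and Trem2 cells overlaps those of the resident and matrix macrophages and lies above that of the remaining C1q cells. At other settings the ratio of the Gpnmb and Trem2 cells moved, to 3.39 (1.72 to 7.08) with a mitochondrial limit of 2%. With a sum of at least 3 it was 3.63 (2.44 to 5.54), and both intervals reach below 3.32. With a sum of at least 6 it was 11.6 (5.36 to 30.0). Ratios of the Lyve1 and Folr2, the Ecm1 and Fcrls and the remaining C1q cells were not recomputed at these settings, so the order there was not tested. These 3 kinds together, 322 AdipoΔ/Δ and 112 control cells, are called other macrophages in what follows. The Gpnmb and Trem2 cells were 22.4% (18.5 to 26.7) of all macrophages so counted in the AdipoΔ/Δ library and 13.8% (8.42 to 21.0) in the control library.

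**Figure D1:**
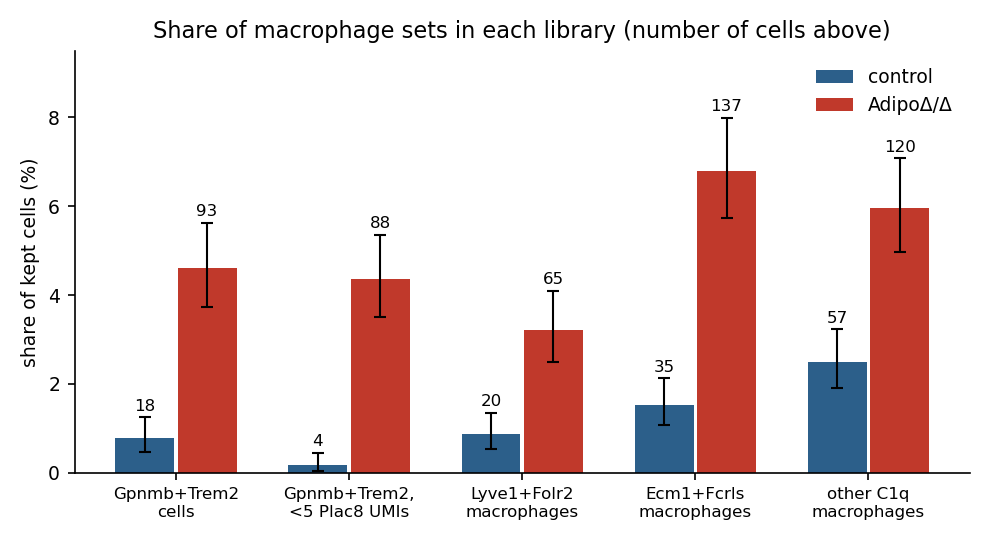
Share of kept cells (percent, with the number of cells above each bar) in the control (blue) and AdipoΔ/Δ (red) libraries, for the Gpnmb and Trem2 cells with and without cells of at least 5 Plac8 UMIs and for the other macrophages. Error bars are 95% Clopper-Pearson intervals, which cover counting error only; the Gpnmb and Trem2 cells stood at 0.790% and 4.61%, and at 0.176% and 4.37% without the Plac8 cells.

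The 18 control cells went largely against the label of macrophages. Plac8, a gene of blood monocytes and neutrophils, had at least 5 UMIs in 14 of them, up to 110, and 12 passed a sum of 4 for the monocyte genes Ly6c2 and Chil3. In 15 of the 18 no C1q UMI was found, and 13 carried Trem2 without Gpnmb. Of the 93 AdipoΔ/Δ cells, 5 had 5 or more Plac8 UMIs. Leaving out such cells, a choice made after these values were seen, left 88 AdipoΔ/Δ cells, or 4.37% (3.52 to 5.35), and 4 control cells, or 0.176% (0.0478 to 0.449). The ratio of shares was then 24.9 (9.38 to 93.3). Without them the group was 21.5% of all macrophages in the AdipoΔ/Δ and 3.45% in the control library. The part of monocytes in the control value was not tested further.

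The 4 control cells without Plac8 differed widely in depth. A cell of 8709 UMIs held 39 Gpnmb, 6 Trem2, 141 Fabp5, 20 Cd63, 17 Lpl and 14 C1q UMIs. A cell of 1617 UMIs held 6 Gpnmb and 20 Fabp5 UMIs, and a cell of 1550 UMIs held 4 Gpnmb, 1 Trem2 and 14 Fabp5 UMIs. A cell of 4296 UMIs held 5 Trem2 and 48 Apoe UMIs. The first cell alone carried 141 of the 193 Fabp5 UMIs of all 18 control cells, so the control level of Fabp5 rests on a single cell.

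**Figure D2:**
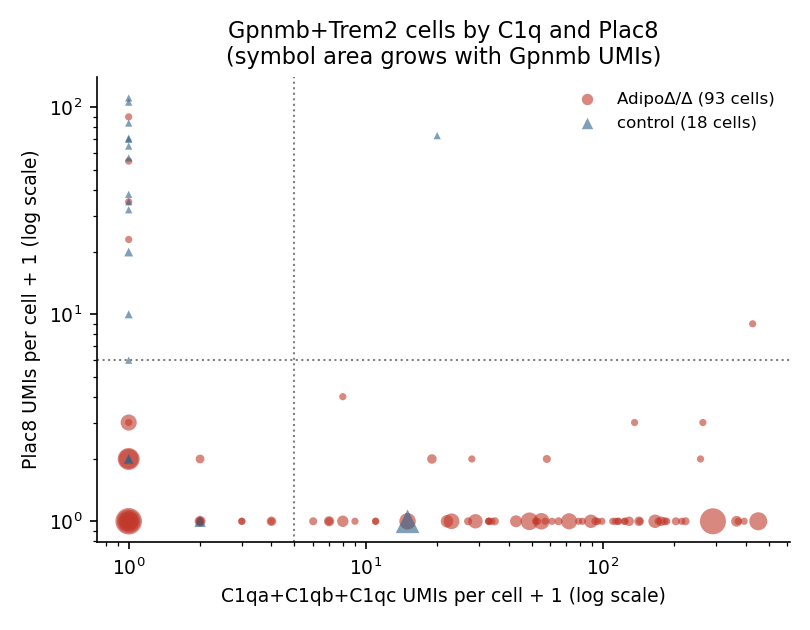
Each symbol is 1 cell taken by the rule, placed by its summed C1qa, C1qb and C1qc UMIs and its Plac8 UMIs, both plus 1 on log axes, with an area that grows with Gpnmb UMIs and dotted lines at 4 C1q and 5 Plac8 UMIs. Of the 18 control cells (triangles), 14 lie on or above the Plac8 line, and of the 93 AdipoΔ/Δ cells (circles) 88 lie under it.

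Within the AdipoΔ/Δ library, the sum of both rule genes was 4 at the lowest, 11 at the median and 94 at the highest. Trem2 ranged from 0 over 9 to 69 UMIs per cell and Gpnmb from 0 over 1 to 50. Both genes were found in 44 cells, Trem2 alone in 46 and Gpnmb alone in 3. Trem2 therefore admitted most of the cells, and 88 would have passed on Trem2 alone against 27 on Gpnmb alone. Summed over the 93 cells, the level was 940 CPM for Trem2 and 365 CPM for Gpnmb. Gpnmb lies on chromosome 6, from 49036546 to 49070929, and Trem2 on chromosome 17, from 48346401 to 48354147, both on the plus strand of GRCm38.

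The threshold cuts a gradual scale. The 11 AdipoΔ/Δ cells with a sum of 4 had a median depth of 9453 UMIs and levels of 119 CPM for Fabp5, 293 CPM for Cd63, 1105 CPM for Lpl and 2427 CPM for C1qa. The 13 cells with a sum of 3 had a median of 10138 UMIs and levels of 328, 541, 2524 and 1467 CPM for the same genes in that order. Plac8 stood at 986 CPM inside and 713 CPM outside. Fabp5, Cd63 and Lpl were thus not higher in the cells just inside than in those just outside.

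Further above it, Fabp5 was at 848 CPM in the 23 cells with sums of 6 to 9, at 1631 CPM in the 30 cells with sums of 10 to 29 and at 3130 CPM in the 19 cells with sums of 30 or more. Cd63 was at 813, 1808 and 2360 CPM in these cells. Median depth was 8368, 13985.5 and 21803 UMIs in the same order, so the cells with the highest sums were also the deepest. A further 5 AdipoΔ/Δ cells and 1 control cell passed the sum but carried UMIs of the lymphocyte genes and were left out.

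Markers that the rule did not use were looked at next: Fabp5, a carrier of fatty acids in the cytosol, Cd63, a tetraspanin of late endosomes and lysosomes, and Spp1, which encodes the secreted protein osteopontin. Fabp5 had between 0 and 145 UMIs per cell with a median of 6 and was found in 70 of the 93 AdipoΔ/Δ cells. The other macrophages reached 33 Fabp5 UMIs, with a median of 0. Cd63 had between 0 and 137 UMIs with a median of 12, in 83 of the 93 cells, whereas the other macrophages reached 22 with a median of 0. The ranges overlapped at the low end for both genes, and medians lay apart.

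Spp1 was found in 46 of the 93 cells, with a median of 0, and a single cell with 113 UMIs held 23.6% of all Spp1 UMIs. Thus Fabp5 and Cd63 marked most of the cells and Spp1 about as many as it left out. Summed levels in the Gpnmb and Trem2 cells, resident, matrix and remaining C1q macrophages were, in this order, 1734, 41.8, 124 and 153 CPM for Fabp5. They were 1591, 587, 90.1 and 478 CPM for Cd63, so that the resident macrophages came next for this gene. For Spp1 they were 349, 7.37, 7.87 and 113 CPM.

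Free transcripts can place UMIs in cells that do not express a gene, and T and B cells served as the background for it. After each cell was thinned to 1000 UMIs, which left 92 of the 93 cells and 295 AdipoΔ/Δ T and B cells, Fabp5 was found in 54.3% against 2.03%. Cd63 was found in 63.0% against 0 of 295, which allows up to 1.24%, and Spp1 in 22.8% against 0.339%. Lpl was found in 85.9% against 4.75%. Without thinning, Fabp5 was in 75.3%, Cd63 in 89.2% and Spp1 in 49.5% of the 93 cells, at median depths of 12925 and 4846 UMIs in the chosen cells and in the lymphocytes. Each share in the Gpnmb and Trem2 cells was above the lymphocyte background.

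**Figure D3:**
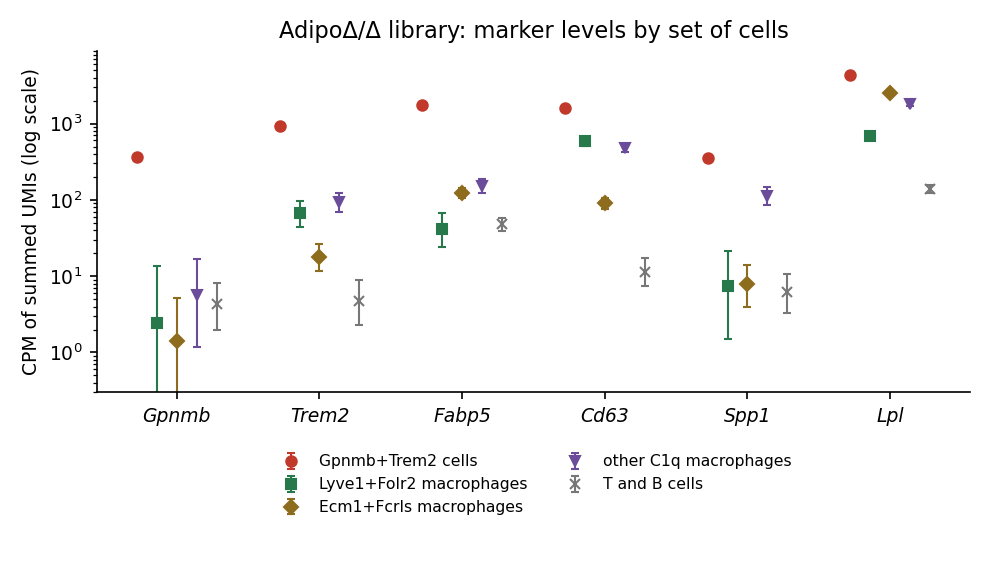
Summed level (CPM, log axis) of 6 markers in the Gpnmb and Trem2 cells, 3 sets of other macrophages and T and B cells of the AdipoΔ/Δ library, with 95% Poisson intervals that cover counting error only. The Gpnmb and Trem2 cells are highest for all 6 genes, at 1734 CPM for Fabp5 and 1591 CPM for Cd63; Gpnmb and Trem2 chose the cells.

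The 93 AdipoΔ/Δ cells were set against all 1923 other kept cells of that library. A gene was compared when it had at least 100 UMIs over both groups and at least 10 in the Gpnmb and Trem2 cells, or a level in the other cells that would give 10, and counted when the ratio of CPM was 2-fold or more. Of 8104 genes compared, 490 (6.05%) were 2-fold higher and 1490 (18.4%) 2-fold lower, and the median log2 ratio of all genes was -0.19. Of 26 genes of the TREM2 programme, a list that includes Gpnmb and Trem2, 24 were higher and 0 lower, with a median of 2.64. Such differences also hold what sets any macrophage apart from lymphocytes and granulocytes. Lists for T cells, B cells, NK cells and neutrophils had 0 genes higher. For T and B cells this follows in part from the rule, which left out cells with UMIs of the Cd3 genes or Cd79a.

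The closer comparison was with the 322 other macrophages of the AdipoΔ/Δ library, whose median depth was 5891.5 UMIs. Of 4451 genes, 201 (4.52%) were 2-fold higher in the Gpnmb and Trem2 cells and 435 (9.77%) 2-fold lower, with a median log2 ratio of -0.07. Of the TREM2 programme, 22 of 26 genes were higher and 0 lower, with a median of 2.10. The 4 genes within 2-fold were Apoe, Tyrobp, Itgax and Mmp12. Apoe, an apolipoprotein that carries cholesterol and a ligand of TREM2, had a ratio of 1.09, and Tyrobp, the adaptor of TREM2, of 1.84. Mmp12, the macrophage elastase, had a ratio of 1.88.

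The genes of highest ratio, beyond the rule genes, held several that are known from lipid-laden macrophages and osteoclasts. Against the other macrophages, the ratio was 42.0 (18.8 to 116) for Syngr1, a vesicle membrane protein, 28.2 for Akr1b8, an aldose reductase-like enzyme, and 14.9 (13.2 to 17.0) for Fabp5. It was 11.0 (8.60 to 14.2) for Spp1, 11.0 (6.83 to 18.6) for Atp6v0d2, a proton pump subunit of osteoclasts and macrophages, and 8.24 for Gdf3, a ligand of the TGF-β family. With a mitochondrial limit of 5% the ratio of Syngr1 was 67.3, and with the mean of per-cell CPM that of Atp6v0d2 was 6.87. Apart from Fabp5, each of these genes was found in 46 cells or fewer: Syngr1 was found in 38, Atp6v0d2 in 30, Akr1b8 in 31 and Gdf3 in 29 of the 93 cells. Against all other kept cells, Syngr1 had a ratio of 76.7 (44.3 to 144) and Fabp5 one of 18.1 (16.8 to 19.5).

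Another gene of high ratio was Lgals3, which encodes galectin-3, a lectin recruited to damaged lysosomes. It was found in all 93 cells, with 2 UMIs at the lowest, 84 at the median and 705 at the highest, against a median of 5 in the other macrophages, and its ratio was 6.24. Slc37a2, a sugar-phosphate transporter, had a ratio of 6.35 and the cytoskeletal gene Actn1 of 6.48. Clec4d, a C-type lectin receptor, and Aprt, which salvages adenine, stood at 7.05 and 4.74. The chitinase-like Chil3 had a ratio of 7.63 to the other macrophages but of 0.703 to all other kept cells, which include monocytes. Cells outside the group that passed only the Ly6c2 and Chil3 sum were not counted as other macrophages. The ratio of 7.63 thus follows in part from the sorting. Of the 93 cells, 17 passed the sum of 4 for Ly6c2 and Chil3.

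For lipid uptake and droplets, 7 of 13 genes were 2-fold higher than in the other macrophages and 0 lower, with a median log2 ratio of 1.08. Lpl, lipoprotein lipase, had between 0 and 225 UMIs per cell with a median of 43, in 89 of the 93 cells, against a median of 5 in the other macrophages. Cd36, a fatty acid and lipoprotein receptor, had between 0 and 236 with a median of 14, against a median of 1. Plin2, the coat protein of lipid droplets, had between 0 and 163 with a median of 13, against a median of 1. Ratios of summed levels were 2.12 for Lpl, 3.33 for Cd36 and 6.13 for Plin2, and ranges overlapped for all 3 genes. The ratio was 3.77 for Fabp4, another fatty acid carrier, and 4.38 for Slc27a1, a fatty acid transport protein. Lpl was also high in the matrix macrophages, at 2493 CPM, against 4275 CPM in the Gpnmb and Trem2 cells and 695 CPM in resident macrophages.

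Fabp4 belongs to the adipocyte list as well, and adipocyte transcripts were looked at for that reason. The 93 cells held 263 UMIs of the 10 adipocyte markers, of which 257 were Fabp4, and 6 of the 10 genes were at 0. The defining adipocyte markers were therefore at or near 0 in these cells.

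Among lipases, Lipa, the lysosomal acid lipase that frees cholesterol and fatty acids from their esters, had a ratio of 2.88 and was the single gene of 4 that was 2-fold higher. Of 11 genes of cholesterol handling, 4 were higher and 1 lower, with a median log2 ratio of 0.45. Those higher were Nr1h3, Apoc2, Nceh1 and Soat1. Nr1h3 encodes LXRα, a nuclear receptor for oxysterols, and had a ratio of 4.15, with UMIs in 47 of 93 cells and at most 8 in a cell. The lower gene was Abca1, the cholesterol efflux transporter, with a ratio of 0.184. Of 15 genes of sterol and fatty acid synthesis, 4 were higher and 1 lower. Those higher were all enzymes of the mevalonate and sterol branch: Fdps with a ratio of 3.39, Msmo1 with 2.31, Fdft1 with 2.17 and Sqle with 2.12. The lower one was Elovl5, a fatty acid elongase, with 0.459.

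Lysosomal genes were divided by kind. Of 9 cathepsins and legumain, 5 were higher (Ctsb, Ctsd, Ctsl, Ctss and Lgmn) and 1, Ctsc, lower at a ratio of 0.389, with a median log2 ratio of 1.01. Ctsb, a cysteine protease, had between 1 and 474 UMIs per cell with a median of 68 and was found in all 93 cells. Ctsl, another cysteine protease, had between 0 and 84 with a median of 3, in 69 cells, and the other macrophages reached 9 with a median of 0. Ratios were 3.38 for Ctsb and 6.16 (5.28 to 7.21) for Ctsl. The Ctsl ratio was 4.09 with the mean of per-cell CPM, 4.51 without the 5 deepest cells and 9.37 with a mitochondrial limit of 5%. Cd63 had a ratio of 6.01 (5.50 to 6.58).

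Of 21 lysosomal membrane and hydrolase genes, Cd63 included, 4 were higher and 1 lower, with a median log2 ratio of 0.40. Besides Cd63, those higher included Cd68, a lysosomal glycoprotein used as a macrophage marker, with a ratio of 4.58, and Slc11a1, a metal transporter of phagosomes, with 3.28. Of 17 subunits of the proton pump that acidifies lysosomes, 5 were higher and 0 lower, with a median of 0.76. They were Atp6v0d2, Atp6v0a1, Atp6v0c, Atp6v1a and Atp6v1c1, and all but Atp6v0d2 lay between 2.02 and 2.69. Of 6 osteoclast and fusion genes, Atp6v0d2 and Acp5, the tartrate-resistant acid phosphatase, were higher, the latter with a ratio of 4.46. Nfatc1, a transcription factor of osteoclasts, and the gelatinase Mmp9 were lower, with ratios of 0.473 and 0.0883.

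Genes of energy metabolism were taken by pathway. None of 13 genes of fatty acid oxidation and none of 26 nuclear genes of the respiratory chain were 2-fold apart in either direction, with median log2 ratios of 0.19 and 0.53. Of 12 glycolysis genes, 4 were higher and 1 lower, with a median of 0.76. Those higher were Gapdh, Aldoa, Eno1 and Pkm, with ratios between 2.00 and 2.60, and Pfkp was lower at 0.498. Of 14 genes of iron and oxidative stress, 5 were higher and 1 lower. The ferritin chains Ftl1 and Fth1 had ratios of 3.88 and 2.79, the peroxidase Prdx1 of 4.06, Slc11a1 of 3.28 and Blvrb, a reductase of haem breakdown, of 2.73. Cd163, the receptor for haptoglobin-bound haemoglobin, was lower at 0.063.

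**Figure D4:**
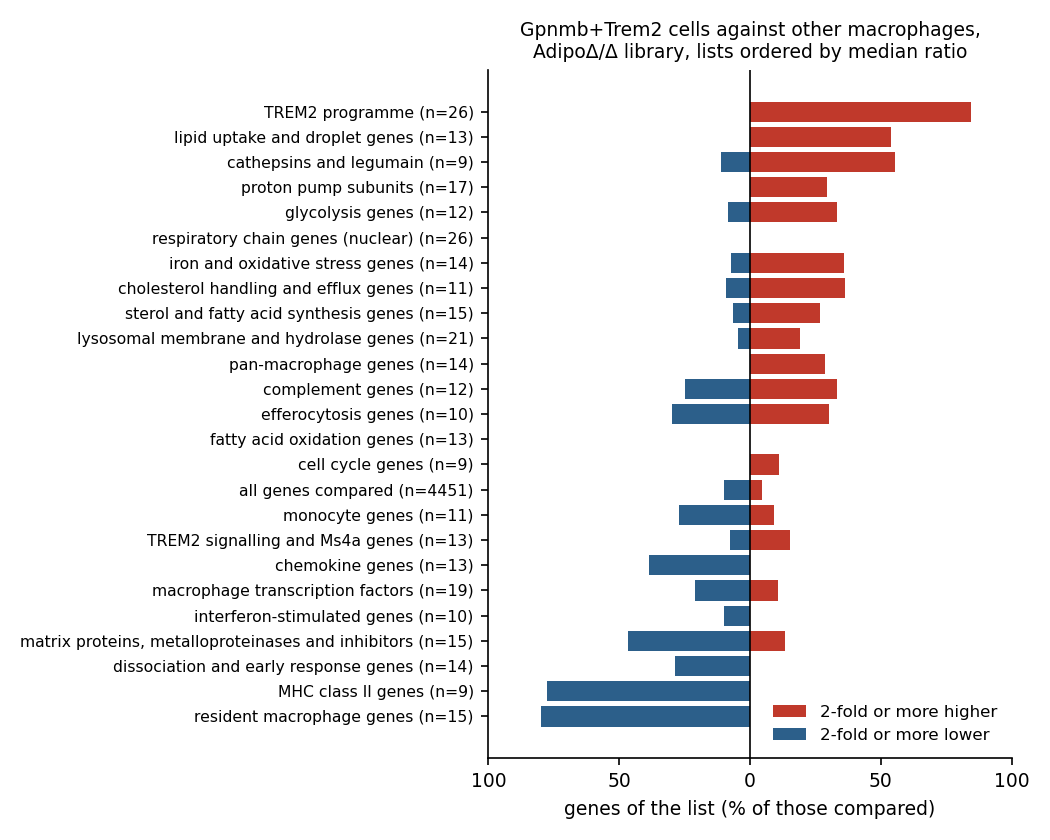
Share of the compared genes of each list (percent) that were 2-fold or more higher (red, to the right) or lower (blue, to the left) in the AdipoΔ/Δ Gpnmb and Trem2 cells than in the other macrophages of that library, for lists with at least 8 genes, ordered by median ratio. The TREM2 programme, with 22 of 26 genes higher, is at the top, the resident macrophage genes, with 12 of 15 lower, at the bottom, and all 4451 genes, with 4.52% higher and 9.77% lower, in between.

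Genes of other macrophage kinds were lower. Of 15 resident macrophage genes, 0 were higher and 12 lower, with a median log2 ratio of -1.81. Mrc1, the mannose receptor CD206, had a ratio of 0.286, and Cd209d and Cd209g, lectins of the DC-SIGN family, had ratios of 0.0092 and 0.044. Of 15 genes of matrix proteins, metalloproteinases and their inhibitors, 2 (Spp1 and Plau) were higher and 7 lower, with a median of -0.67. Fn1, fibronectin, had a ratio of 0.146, Ecm1 of 0.152 and Cd226, an adhesion receptor, of 0.013, or 0.0085 with a sum of at least 6 for the rule genes. Ecm1, Lyve1 and related genes sorted the other macrophages into their groups, so their direction follows in part from the sorting. Retnla, a secreted product of alternatively activated macrophages, had a ratio of 0.067, and 84.2% of its UMIs in the 93 cells lay in a single cell.

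Of 9 MHC class II genes, which serve antigen presentation to T cells, 7 were lower and 0 higher, with a median log2 ratio of -1.17. Cd74, the invariant chain, had a ratio of 0.512 and H2-Aa one of 0.521. H2-DMb2, a peptide exchange factor, had a ratio of 0.058, and Cd209a, a marker of dendritic cells, of 0.012. Among chemokines, 5 of 13 genes were lower and 0 higher. They were Ccl4, Ccl5, Ccl8 and Ccl24, with ratios between 0.117 and 0.225, and Ccl17. The last of these, a chemokine of dendritic cells, had 0 UMIs in the 93 cells, at least 59.9-fold lower than in the other macrophages at a floor of 3 counts for the 93 cells together. Of the 306 Ccl17 UMIs there, 272 came from a single cell. Il1b, an inflammatory cytokine, had 8 UMIs in the 93 cells and a ratio of 0.044.

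Other lists of signal genes held members on either side. Of 7 growth factor genes, Igf1 and Gdf3 were higher and 0 lower, and Igf1, insulin-like growth factor 1, was found in 70 of 93 cells with a ratio of 2.88. Of 10 genes of efferocytosis, 3 were higher and 3 lower, with Anxa1, annexin A1, at 3.73, the integrin chain Itgb5 at 3.12 and Axl, a receptor for apoptotic cells, at 2.08. The bridging ligands Gas6 and Pros1 were at 0.208 and 0.227, and Dock1 at 0.350. Among 13 genes of TREM2 signalling and the Ms4a family, Ms4a7 was higher, as was Trem2, which chose the cells, and Cd33, an inhibitory lectin, was lower at 0.215. Of 19 transcription factors, Nr1h3 and Pparg, at 2.20, were higher, and Klf4, Nupr1, Hif1a and Nfatc1 lower, between 0.341 and 0.473. Of 11 monocyte genes, Chil3 was higher, in part through the sorting, and Ccr2, Ifitm6 and Adgre4 lower, between 0.140 and 0.433. Of 14 genes that respond to tissue dissociation, Egr1, Ier2, Fosb and Junb were lower, between 0.112 and 0.394, and 0 higher, with a median log2 ratio of -0.77.

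Of 12 complement genes, 4 were higher and 3 lower than in the other macrophages, with a median log2 ratio of 0.28. Those higher were the receptors C5ar1, at 2.76, C3ar1, at 2.15, and Cd93, at 3.39, together with C3, at 2.23. Those lower included C4b, a component of the cascade, at 0.100, and Cfp, properdin, at 0.242. Against the matrix macrophages alone, C5ar1 and Cd93 stood at 11.6 and 20.3. Against the resident macrophages alone, 1 of 11 complement genes was higher and 5 were lower, with a median log2 ratio of -0.76.

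The C1q genes divided the cells. C1qa, C1qb and C1qc encode the chains of C1q, and summed over the 93 cells they lay close to the other macrophages, with ratios of 0.994 for C1qa and 1.35 for C1qb. These ratios are held down by the sorting, since C1q admitted many of the other macrophages. Single cells differed widely. Among the 88 AdipoΔ/Δ cells with fewer than 5 Plac8 UMIs, 61 had 4 or more C1q UMIs and 27 had fewer, a division chosen after the values were seen. Of the 61, 46 had 30 or more, and of the 27, 16 had 0. Depth was similar, at a median of 12925 and 13277 UMIs. The 16 cells at 0 had between 839 and 34546 UMIs with a median of 13142.5, a depth at which the summed C1q level of 5145 CPM would give 67.6 UMIs.

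**Figure D5:**
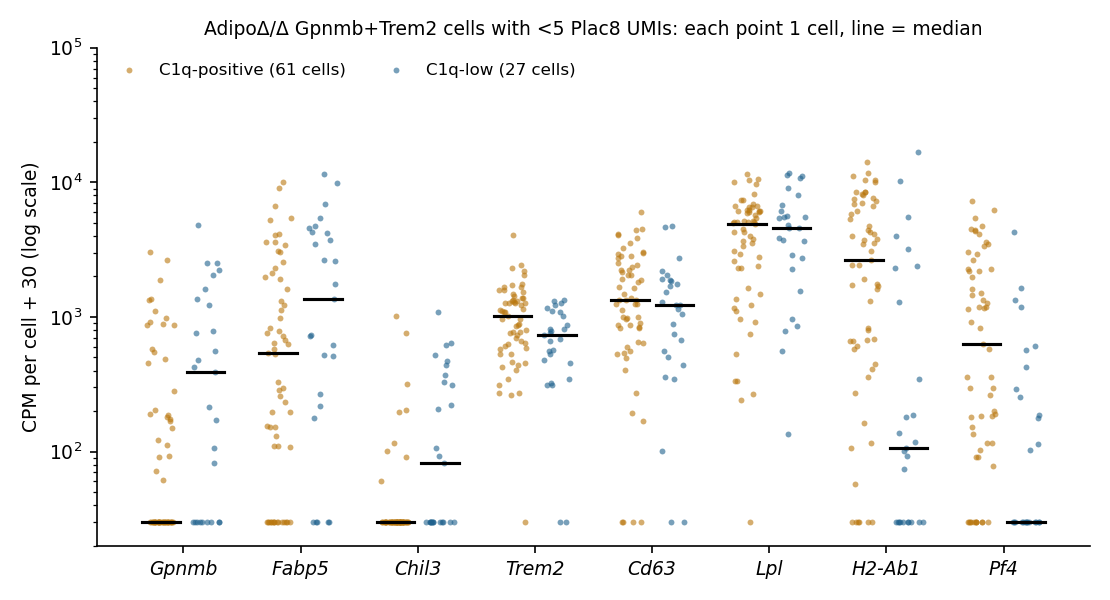
Level of 8 genes (CPM plus 30, log axis) in each AdipoΔ/Δ cell with fewer than 5 Plac8 UMIs, for the 61 cells with at least 4 C1q UMIs (orange) and the 27 with fewer (blue), with a line at the median. Points overlap for every gene; the medians of Gpnmb, Fabp5 and Chil3 are higher and those of H2-Ab1 and Pf4 lower in the 27 cells.

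The 27 and the 61 cells were compared without a test, since a few deep cells can set a sum. Of 1644 genes, 9 (0.547%) were 2-fold higher and 47 (2.86%) 2-fold lower in the 27 cells. The ratio was 4.31 (2.89 to 6.51) for Chil3, 2.64 (2.21 to 3.16) for Gpnmb, 2.33 (1.94 to 2.81) for Spp1 and 1.95 (1.79 to 2.11) for Fabp5. A single cell of the 27 held 113 Spp1 UMIs, so the Spp1 ratio rests largely on that cell. Gpnmb had between 0 and 50 UMIs with a median of 3 in the 27 cells, and between 0 and 48 with a median of 0 in the 61. Fabp5 had a highest value of 132 and a median of 13 in the 27 cells, and of 145 and 5 in the 61, so ranges overlapped for both genes. Trem2, by contrast, had a ratio of 0.735 (0.643 to 0.838), and Lpl one of 1.17.

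MHC class II genes were lower in the 27 cells for 5 of 6 genes, with a median log2 ratio of -1.47, and resident macrophage genes for 6 of 8, with a median of -1.59. H2-Ab1 had between 0 and 118 UMIs with a median of 1 in the 27 cells and between 0 and 172 with a median of 36 in the 61, a ratio of 0.392. The ratio was 0.299 for Mrc1, 0.356 for Pf4, a chemokine of platelets and macrophages, and 0.236 for Retnla. The Retnla ratio rests on a single cell of the 61 with 846 UMIs, while a cell of the 27 held 71. It therefore does not show a direction for the remaining cells. The TREM2 programme had 2 of 26 genes higher, Gpnmb and Spp1, the latter largely through a single cell, and 0 lower, with a median of -0.10. The cells with few C1q transcripts thus differed in resident and MHC class II genes, while the programme's median stayed near 0.

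Over the 88 cells, per-cell levels of Gpnmb and Fabp5 had a Spearman correlation of 0.60, and Trem2 and Cd63 had 0.60 as well. It was 0.44 for Trem2 and Lpl and 0.19 for Gpnmb and Trem2. Gpnmb had -0.45 with H2-Ab1 and -0.33 with the C1q genes, and total UMIs had 0.01 with C1q. The cells share a library and a rule that used Gpnmb and Trem2, so these values are descriptions.

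Resident and matrix macrophages were also taken singly. Against the 65 resident macrophages, 338 of 2374 genes (14.2%) were 2-fold higher and 278 (11.7%) 2-fold lower. The TREM2 programme had 21 of 26 genes higher and 1 lower, with a median log2 ratio of 1.79. The lower gene was Apoe, with a ratio of 0.317. The resident genes had 0 of 15 higher and 15 lower, with a median of -3.62, and Mmp12 had a ratio of 10.2. MHC class II genes had 0 of 6 past 2-fold in either direction. Complement genes had 1 of 11 higher and 5 lower, with a median of -0.76. Growth factor genes had 1 of 6 higher and 1 lower, with a median of -0.41. Lysosomal membrane and hydrolase genes had 4 of 19 higher and 1 lower, with a median of -0.37. Against the 137 matrix macrophages, 306 of 3468 genes (8.82%) were higher and 365 (10.5%) lower. The TREM2 programme had 23 of 26 genes higher and 0 lower, with a median of 2.67, complement genes 7 of 10 higher and 1 lower, and MHC class II genes 8 of 9 lower and 0 higher. Of the resident genes, Folr2, Pf4, Stab1 and Maf were higher than in the matrix macrophages, at 9.18, 4.67, 9.25 and 2.40, and F13a1 and Mgl2 lower, at 0.352 and 0.381. Pf4, Stab1 and Maf thus stood between the levels of resident and matrix macrophages. Folr2 did so as well, but it helped to sort these sets, so its place follows in part from the sorting.

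The groups were not exclusive in their genes. Of the 93 cells, 14 also passed the sum for Lyve1 and Folr2, 7 that for Ecm1 and Fcrls and 62 that for C1q. Cells with at least 2 UMIs of Mki67 and Top2a, genes of dividing cells, numbered 7 of 93 (7.53%, 3.08 to 14.9), against 14 of 137 matrix (10.2%) and 3 of 65 resident macrophages (4.62%), and no order could be read from these shares. Of other cell types, the 93 cells held 17 UMIs of the T cell list, 178 of the B cell list, 108 of the neutrophil list and 90 of the NK cell list, 67 of these in 1 cell.

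Within the control library, 341 of 3076 genes (11.1%) were 2-fold higher in the 18 cells than in its other kept cells and 270 (8.78%) lower. Of the TREM2 programme, 13 of 19 genes compared were higher and 0 lower, with a median log2 ratio of 1.46, and of the monocyte genes 6 of 15 were higher and 1 lower, with a median of 0.73. The programme list includes the rule genes, and 1 cell held 39 of the 52 Gpnmb UMIs of the 18 cells and 141 Fabp5 UMIs.

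Lastly, the AdipoΔ/Δ cells were set against the 18 control cells, of which 14 carried Plac8. Of 2028 genes, 356 (17.6%) were 2-fold higher in the AdipoΔ/Δ cells and 195 (9.62%) 2-fold lower, with a median log2 ratio of 0.15. The TREM2 programme had 21 of 26 genes higher and 0 lower, with a median of 2.43. Spp1, Pf4, Mrc1 and Gdf3 had 0 UMIs in the control cells, and the AdipoΔ/Δ level was at least 22.8-fold higher for Spp1 and at least 78.2-fold higher for Pf4, at a floor of 3 counts over the control cells. Igf1 had 1 UMI in the control cells and a ratio of 92.0 (16.5 to 3640), and C1qa had 2. Fabp5 had a ratio of 1.76 (1.52 to 2.05), with most of the control UMIs in the single cell described above. Lpl, at 30 UMIs in the control cells, had a ratio of 28.0.

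Monocyte genes went the other way, with 0 of 8 higher and 7 lower and a median log2 ratio of -3.56. The ratio was 0.042 for Plac8, 0.028 for Hp, the haptoglobin gene, and 0.025 for Ifitm6. MHC class II genes had 5 of 6 higher in AdipoΔ/Δ cells, with a median of 3.14, among them H2-Ab1 at 10.6 and Cd74 at 7.41. With Plac8 cells left out of both libraries, 465 of 1663 genes compared were 2-fold higher and 194 lower, from 4 control cells. The comparison therefore set macrophages of one library against a control group of mainly monocyte-marked cells.

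The 14 control cells with Plac8 had a median depth of 12269 UMIs and were set against the control cells with Ly6c2 and Chil3. Of 2779 genes, 101 (3.63%) were 2-fold higher and 142 (5.11%) lower. Besides Trem2, used by the rule, at a ratio of 10.7, higher genes named after their values were seen were Vcan, a proteoglycan of monocytes, at 3.56, Apoe at 3.55 and Fcgr1, an Fc receptor of monocytes and macrophages, at 3.31. The group they were set against also held NK cells, with Gzma at 2040 CPM in the control library.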

How the data were processed

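The authors used Cell Ranger 4.0.0 with the mm10 build, per their processing notes, and deposited raw UMI counts of each gene in each barcode, 2381 barcodes for AdipoΔ/Δ and 2597 for control. Labels gave the groups. UMIs were summed over the cells of a group and scaled to its total as CPM. Shares carry Clopper-Pearson, sums Poisson and ratios conditional binomial 95% intervals, which cover counting error only, as PCR copies are removed by UMIs but variation between mice is not measured. With 1 library per condition, nothing was tested between conditions. Detection was also compared with every cell thinned to 1000 UMIs. A fold against 0 was taken at a floor of 3 counts. Gene positions are of GRCm38, for which 32158 of 32285 identifiers matched, and promoters are RefSeq sequences of GRCm38.p6.

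The cells, gene lists and comparisons were chosen with earlier results of these data known. Named genes were the 15 highest and 10 lowest ratios in each main comparison with at least 100 UMIs, up to 4 genes of each list, the genes named in the study, the 10 highest and 10 lowest against the control cells, and cell type markers. Other genes, given where a list had few members past 2-fold or beside the control cells, were chosen after their values were seen, and some genes are not reported here. Doublets were scored with Scrublet in Scanpy 1.11.5, which called 0.252% of AdipoΔ/Δ and 0.308% of control barcodes and thus did not work as a filter; doublets were left in, and 1 of the AdipoΔ/Δ cells was called. Python 3.11.15, NumPy 2.4.6, pandas 2.3.3, SciPy 1.17.1 and matplotlib 3.10.9 were used. Interval code was tested on simulated data. Alternatives varied the UMI sum, cell filters, count filter, scaling, thinning and Plac8 cells.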

Additional observations from a re-analysis of the deposited data

Results flagged for a closer look

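Of the 365 AdipoΔ/Δ barcodes left out, 5 over the mitochondrial limit passed both UMI rules for the Gpnmb and Trem2 cells, a signal outside the comparisons above. Of the 318 control barcodes left out, 0 did.

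Set against the other kept cells of its own library, the group of Gpnmb and Trem2 cells had 39 genes that were 2-fold or more apart in opposite directions in the AdipoΔ/Δ and control libraries, of 3066 genes compared in both. The difference was not tested. Higher in AdipoΔ/Δ and lower in control were 4 genes, Mif, Actn1, C1qa and Pf4. The reverse held for 35. Among them were the monocyte genes Vcan, with ratios of 0.279 and 8.93, Ifitm6, with 0.124 and 2.66, and Plac8, with 0.179 and 2.43. F13a1, counted above with the resident genes, was another, with 0.487 and 4.21. In both libraries 83 genes were higher and 187 lower.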

How the results depend on the processing

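The ratio of shares was 11.6 with a sum of at least 6 UMIs, 24.9 with Plac8 cells left out and 3.39 with a mitochondrial limit of 2%, against 5.84 as reported. It was 3.63 with a sum of at least 3, and 4.62 after thinning. The AdipoΔ/Δ share was 3.57% with 6 UMIs and 3.37% with the limit of 2%, and the control share 1.45% with 3 UMIs, 0.307% with 6 and 0.176% without Plac8 cells. Against the other kept cells, no filter on counts gave 1508 genes higher and 7192 lower, and a minimum of 30 UMIs gave 2296 lower. Against the other macrophages, the minimum of 30 gave 370 higher and 1018 lower, and no filter 1405 and 3584; both settings compare more genes. Scaling to the median ratio of all genes, a log2 shift of -0.19 and -0.07, changed 490 higher and 1490 lower to 710 and 1182 against the other kept cells, and 201 and 435 to 264 and 377 against the other macrophages. Of 280 gene ratios recomputed, 187 stayed within their counting interval, 93 moved outside it and 0 reversed; the cause was not tested. No paired analysis was possible because each condition had 1 library. The control group is limited by its 18 cells, of which 4 are without Plac8. Median depth was 11901.5 UMIs over the 18 cells. The 4 cells without Plac8 were shallower, at a median of 2956.5 UMIs against 13029 in the 88 AdipoΔ/Δ cells without Plac8.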
